A study of Mus musculus with 8 samples.

Results

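H3K27ac HiChIP was carried out in HPC-7, a line of mouse blood progenitors. The method joins DNA ends that touch within the nucleus and pulls down the joined pieces through H3K27ac, an acetylated histone found at working enhancers and promoters. The cells had been stably transduced by retrovirus with CEBPA, a myeloid transcription factor, as its full-length isoform p42 or as the shorter leukaemia-associated p30, on a background of very low endogenous CEBPA. Cells of either isoform were left untreated (UT) or given bacterial lipopolysaccharide (LPS) at 100 ng/mL for 2 h, which makes 4 groups, with 2 libraries in each and 8 in all. The labels do not say whether these libraries carried the version of each isoform that 4-hydroxytamoxifen moves to the nucleus. Each group was given by its authors as 1 list of significant contacts (loops) between bins of 5 kb, so no spread between replicates was measured, no p-value was computed, and every difference below compares these libraries rather than the conditions.

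The loops described here, called untreated-only loops, are the bin pairs present in the p30 UT and the p42 UT list and absent from both LPS lists. They were thus selected on measured values, the contact count and expected count that decide a loop's q-value in each list. There were 10690 of them among the 214313 bin pairs of any list, which is 4.99%, and they made up 18.1% (95% Wilson interval 17.8 to 18.4) of the 59069 loops that both untreated lists shared. The mirror set, loops in both LPS lists alone, held 2861 loops or 6.20% (5.99 to 6.43) of the 46110 loops shared by the LPS lists. Wilson intervals here cover counting error only.

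The lists differed in size and depth. The untreated lists held 80489 (p30) and 158233 (p42) loops and the LPS lists 94609 (p30) and 78591 (p42). The contacts modelled by the caller numbered 17976716 and 18999991 for the untreated lists and 14503330 and 15831583 for the LPS lists, so both LPS lists rested on fewer contacts than either untreated list. Size did not follow depth throughout, as the p30 LPS list had the fewest contacts and more loops than the p30 UT list. With each list cut to its 78591 loops of smallest q-value, 5503 loops were in both untreated lists alone and 5018 in both LPS lists alone. The asymmetry between the untreated and the LPS side therefore shrank from 10690 against 2861 to nearly even counts, and the part of depth and list size in the untreated-only set was not otherwise tested. Loops were present at progenitor genes: 32 of 40 stem and progenitor regulators had a loop at their start site in at least 1 list, against 6 of 27 lymphoid genes and 10513 of all 21738 protein-coding genes. Other lists stood as high, such as granulocyte and monocyte genes at 27 of 32 and ribosomal protein genes at 69 of 80.

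A loop in such data joins an active element to another element or to a promoter, the stretch just before a gene's start where transcription is set up. H3K27ac marks both ends of most loops, and signalling through the LPS receptor activates NF-kB and AP-1 factors that redistribute acetylation between enhancers. In a population of cells, fewer cells with a contact and fewer contacts per cell cannot be told apart. A loop that is absent from a list is not a contact at 0, since it only failed the q-value threshold of 0.01.

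To show the promoters the results turn on, the 250 bases before the canonical start of 5 genes are given, read from GRCm39 (mm39) 5′ to 3′ on the gene's own strand. Sik1 and Igsf8 were among the genes with the most untreated-only loops, Fut7 lies in 1 of the largest clusters of them, Prodh had promoter loops in the untreated lists alone, and Trip10 was an end of an isolated loop between promoters. The windows are chr17:32074819-32075068 (Sik1, minus strand), chr1:172139611-172139860 (Igsf8, plus), chr2:25313016-25313265 (Fut7, plus), chr16:17907157-17907406 (Prodh, minus) and chr17:57555309-57555558 (Trip10, plus). Capitals mark matches to 12 consensus motifs, searched on both strands.
Sik1: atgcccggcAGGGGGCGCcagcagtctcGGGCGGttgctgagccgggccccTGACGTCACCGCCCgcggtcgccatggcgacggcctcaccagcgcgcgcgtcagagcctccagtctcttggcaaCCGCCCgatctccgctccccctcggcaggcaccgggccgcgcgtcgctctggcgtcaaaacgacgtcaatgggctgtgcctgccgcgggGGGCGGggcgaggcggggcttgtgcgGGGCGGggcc
Igsf8: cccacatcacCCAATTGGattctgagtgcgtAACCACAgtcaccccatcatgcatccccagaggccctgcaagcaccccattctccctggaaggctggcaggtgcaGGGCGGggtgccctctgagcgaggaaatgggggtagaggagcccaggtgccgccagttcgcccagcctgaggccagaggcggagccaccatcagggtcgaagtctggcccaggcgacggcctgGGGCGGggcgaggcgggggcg
Fut7: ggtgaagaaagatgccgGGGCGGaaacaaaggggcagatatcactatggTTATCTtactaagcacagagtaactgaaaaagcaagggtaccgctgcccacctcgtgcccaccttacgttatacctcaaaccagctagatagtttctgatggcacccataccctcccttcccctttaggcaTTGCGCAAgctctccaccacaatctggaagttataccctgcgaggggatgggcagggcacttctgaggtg
Prodh: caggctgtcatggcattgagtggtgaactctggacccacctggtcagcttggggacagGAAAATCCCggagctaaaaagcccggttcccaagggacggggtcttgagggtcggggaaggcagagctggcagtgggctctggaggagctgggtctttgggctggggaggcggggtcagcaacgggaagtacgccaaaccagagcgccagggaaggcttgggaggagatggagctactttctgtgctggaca
Trip10: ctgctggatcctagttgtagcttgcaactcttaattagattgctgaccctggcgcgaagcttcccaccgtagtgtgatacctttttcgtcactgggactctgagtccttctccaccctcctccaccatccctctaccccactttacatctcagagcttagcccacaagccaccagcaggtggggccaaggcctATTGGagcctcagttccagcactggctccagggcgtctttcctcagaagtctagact

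The letters searched were TGANTCA for AP-1, TTGCGCAA for C/EBP, TGATGCAA for the mixed C/EBP-ATF site, TGACGTCA for the cAMP response element (CRE), GGGANTTTC for NF-kB, GAGGAAGT for PU.1, CCGGAAGT for ETS, TGTGGTT for RUNX, AGGGGGCGC for the CTCF core, AGATAA for GATA, CCAAT for NF-Y and GGGCGG for SP/KLF. In the Sik1 window a CRE match stood 199 bases before the start, with an SP/KLF match directly beside it and a CTCF match at 241. The CRE letters occurred in 1.70% of all 21738 promoters of this length, in 2.09% of those with a loop and in 2.18% (1.72 to 2.76) of the 3074 with an untreated-only loop. In the Igsf8 window the capitals are 2 overlapping NF-Y matches on opposite strands, a RUNX match and 2 SP/KLF matches. The Fut7 window held a C/EBP match 70 bases before the start. This sequence was found in 0.166% of all promoters and in 0.247% (0.169 to 0.362) of those with a loop. Of the 3074, 11 held it (0.358%, 0.200 to 0.640). The Prodh window held an NF-kB match at 192, found in 1.08% of all promoters and in 1.11% (0.793 to 1.54) of the 3074. The Trip10 window had a match to NF-Y. For 11 of the 12 motifs the interval among genes with an untreated-only loop overlapped that among all genes with a promoter loop, and for SP/KLF, at 51.4% (49.6 to 53.1) against 48.6% (47.6 to 49.6), the intervals lay apart by less than the rounding of these limits. A match of letters is a description and not a binding site.

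Most untreated-only loops lay beside a loop that was listed after LPS, whether or not that neighbour was listed without it. A p30 LPS loop with both bins within 1 bin of the pair existed for 7711 (72.1%) of the 10690, a p42 LPS loop for 7006 (65.5%) and a loop of each LPS list for 6055 (56.6%). Only 2028 loops, 19.0% (18.2 to 19.7), had no LPS loop within 1 bin at each end, and these are called isolated below. Of the other 8662, the nearby LPS loop shared 1 bin with the pair for 7894 (91.1%) and was shifted at both ends for 768 (8.87%). A loop of all 4 lists lay within 1 bin of 3903 untreated-only loops (36.5%). For most of the set, then, the exact bin pair was missing after LPS while a neighbouring pair was listed. In the mirror set of LPS-only loops, the share with no untreated loop within 1 bin was 14% (12.8 to 15.3).

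The bins themselves were mostly still in use. Among the 2028 isolated loops, 1293 (63.8%) had another LPS loop at each of their bins, 558 (27.5%) at 1 of them and 177 (8.73%) at neither. The 10690 loops used 16184 bins, of which 15011 (92.8%) held an H3K27ac peak and 1820 (11.2%) were in no loop of either LPS list. For the 3711 bins of isolated loops that last share was 864 bins, or 23.3%.

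Untreated-only loops spanned longer distances than loops kept in all lists. Their median was 50 kb (quartiles 20 and 95, longest 1110 kb), against 35 kb (15 and 75) for the 31032 loops in all 4 lists and 40 kb (15 and 85) for LPS-only loops. Loops over 100 kb made up 22.5% of the set (21.7 to 23.3), 28.3% of the isolated loops (26.3 to 30.3), 15% of loops in all lists (14.7 to 15.5) and 20.6% of LPS-only loops (19.1 to 22.1). Both sets that are missing from a pair of lists were thus longer than the shared loops, the LPS-only set as well. At the short end, 11% of untreated-only loops joined bins 10 kb apart, the shortest distance listed, against 20.8% of loops in all 4 lists. Isolated loops, at 20.5% (18.8 to 22.3), stood close to the latter.

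**Figure D1:**
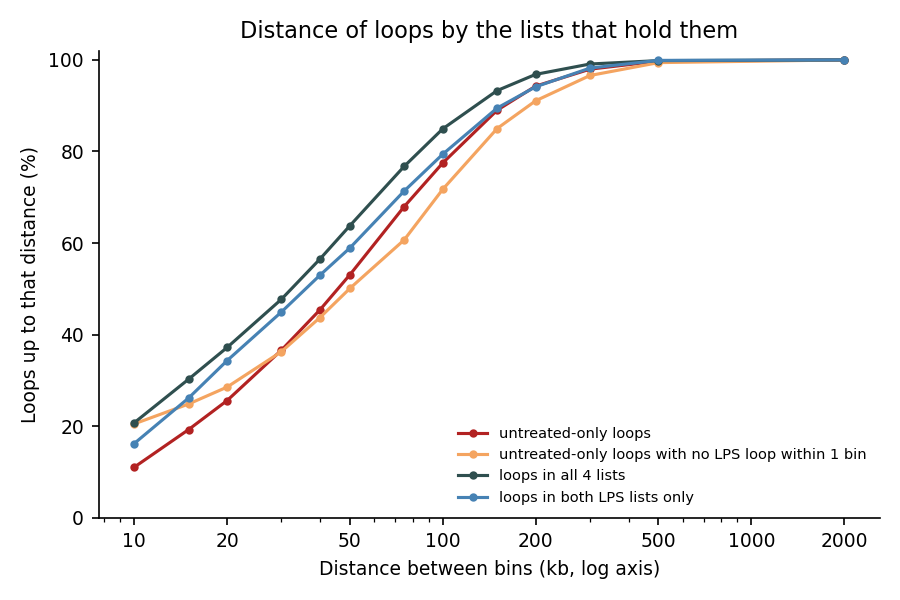
Share of loops (y axis, %) up to each distance between bins (x axis, kb, log scale) for untreated-only loops, the isolated ones among them, loops in all 4 lists and loops in both LPS lists only. Untreated-only loops reach 50% at longer distances than loops of all 4 lists, with medians of 50 and 35 kb.

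The share of untreated-shared loops that were missing from both LPS lists rose with distance. It was 11.2% (10.6 to 11.8) at 10 kb, 18.6% (18.0 to 19.2) at 25 to 50 kb, 22.8% (21.9 to 23.7) at 105 to 200 kb and 26.1% (24.3 to 28) at 205 to 500 kb, where it covered 583 of 2233 loops. Expected contacts fall with distance, so long loops rest on fewer contacts, and the part of depth in this gradient was not tested. The isolated share of untreated-only loops was 35.2% at 10 kb, 10.5% at 15 to 20 kb and 29.0% at 205 to 500 kb. Of the 8 neighbouring bin pairs of a 10 kb loop only 5 are far enough apart to be listed, and the part of this limit in the value at 10 kb was not tested.

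The loops were poorer in promoters than the loops kept after LPS, whereas for the isolated ones the pooled share did not stand apart and the order turned with distance. A bin with the canonical start of a protein-coding gene stood at 1 or both ends of 3285 untreated-only loops, 30.7% (29.9 to 31.6). The share was 38.3% (37.8 to 38.8) for loops in all 4 lists, 34.3% (33.6 to 35.0) for loops in both untreated lists and 1 LPS list, and 27.5% (25.9 to 29.2) for LPS-only loops. Isolated loops stood at 38.2% (36.1 to 40.4), and the untreated-only loops with an LPS loop nearby at 29.0% (28 to 29.9). A promoter at both ends was found for 472 untreated-only loops, 4.42% (4.04 to 4.82), of which 160 were isolated, and that is 7.89% (6.79 to 9.14) of the isolated loops against 6.48% of loops in all 4 lists. The remaining 7405 loops, 69.3%, joined bins without such a start, and 87.9% of the set had an H3K27ac peak at both ends.

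Because promoter share depends on distance, it was compared within distance classes. Untreated-only loops held promoters less often than loops of all 4 lists up to 100 kb, with 30.7% (29.1 to 32.4) against 43.0% (42 to 44.1) at 25 to 50 kb and 34.4% (32.6 to 36.3) against 44.2% (43.0 to 45.4) at 55 to 100 kb. Beyond 100 kb the intervals overlapped, at 38% (35.7 to 40.2) against 36.4% (34.9 to 38) for 105 to 200 kb. Isolated loops of 105 to 200 kb held a promoter in 52.6% (47.6 to 57.4) of 392 cases, above both other sets. From 205 kb on, their 40.9% (34.0 to 48.2) of 181 cases overlapped both. Loops of all 4 lists stood there at 34.9% (32.0 to 37.9) and all untreated-only loops at 33.0% (29.4 to 36.8). At distances up to 50 kb isolated loops stood below loops of all 4 lists, at 21.6% (17.9 to 25.8) against 28.7% (27.6 to 29.9) at 10 kb, 27% (20.8 to 34.3) against 37.1% (35.8 to 38.5) at 15 to 20 kb and 36.4% (32.0 to 41.0) against 43.0% at 25 to 50 kb. At 55 to 100 kb, with 46.0% (41.4 to 50.7), their interval overlapped that of loops in all lists.

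**Figure D2:**
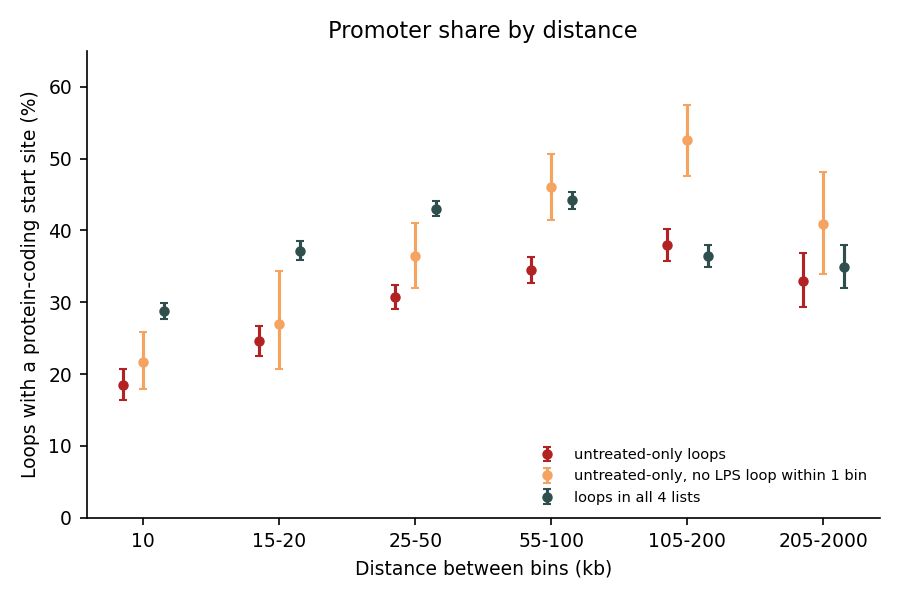
Share of loops with a protein-coding start site at 1 or both bins (y axis, %) by distance between the bins (x axis, kb), with points for the share and bars for the 95% Wilson interval, which covers counting error only. Untreated-only loops lie below loops of all 4 lists up to 100 kb, and isolated loops lie below them up to 50 kb and above both sets at 105 to 200 kb, at 52.6%.

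Contacts in the untreated lists chose these loops, so their levels are given as a description. The median loop had 16 contacts in p30 UT (quartiles 12 and 24, most 136) against an expected 3.45, and 18 in p42 UT (13 and 28, most 223) against an expected 3.71. The ratio of contacts to expected had a median of 4.28 (2.97 and 5.63) and 4.40 (3.07 and 5.80). Isolated loops had medians of 14 and 15 contacts and ratios of 4.58 and 4.51. Loops of all 4 lists held more contacts, 29 in p30 UT and 39 in p42 UT, at ratios of 4.34 and 5.23.

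Many of them were close to the threshold. A q-value over 0.001 was seen for 49.8% of them in p30 UT and 30.4% in p42 UT, against 15.5% and 4.02% of loops in all 4 lists. In all, 2884 had a q-value over 0.005 in at least 1 untreated list. The one closest to the threshold inside the set joined chr11:103880001-103885000 to chr11:104055001-104060000, with 14 contacts in p30 UT and 8 in p42 UT. Just outside it, a loop between chr17:47455001-47460000 and chr17:47485001-47490000 had 19 and 25 contacts and was kept out by an LPS q-value just under 0.01, and 1875 loops of both untreated lists were kept out by 1 LPS list alone, at a q-value over 0.005 there.

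Although contacts after LPS are not listed for these loops, an upper bound follows where both bins occur in other loops of an LPS list. The expected count can then be read off from distance and coverage, and the bound is the largest contact count that would still miss that list's threshold. Such a bound existed in both LPS lists for 6619 loops (61.9%), and for 767 of the isolated loops (37.8%). The median pair had 16 and 18 contacts in p30 UT and p42 UT and at most 11 in either LPS list. The expected counts in the LPS lists had medians of 2.81 (p30) and 3.01 (p42), and the bound moves with them.

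Measured as contacts over expected, the guaranteed fall was small. The smallest fold drop that the lists allow had a median of 1.08 over both isoforms, with 1.14 for p30 and 1.20 for p42 taken alone. It was over 1 for 5108 loops (77.2%), at least 1.5 for 205 (3.10%) and at least 2 for 11 (0.166%). A drop of at least 1.5 in both isoforms was seen for 1.44% of all 51406 loops of both untreated lists that had a value or a bound, and for 533 of the 44787 that were not in the set. Selection for absence after LPS fixes the direction of this difference. Among isolated loops the share was 11 of 767 (1.43%), and in the mirror comparison 73 of 1933 LPS-only loops (3.78%) had a rise of at least 1.5. Divided by expected counts, the lower exact Poisson limit of untreated contacts lay above the LPS bound in both isoforms for 77 loops (1.16%). For the others with a bound, in at least 1 isoform an LPS ratio within counting error of the untreated one could have gone unlisted.

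**Figure D3:**
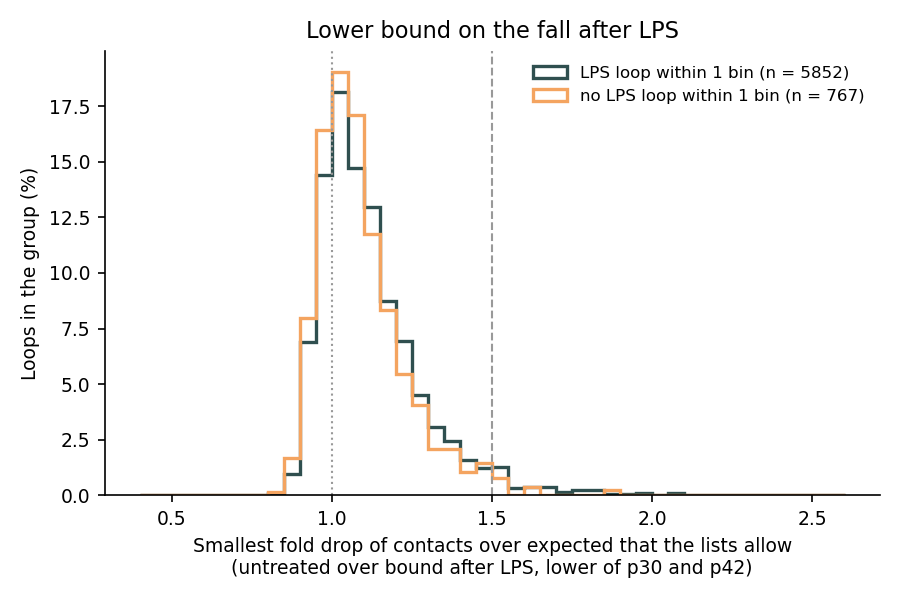
Distribution of the smallest fold drop in contacts over expected that the lists allow (x axis, fold, the lower of both isoforms) for untreated-only loops with a bound in both LPS lists (y axis, % of each group), with lines at 1 and at 1.5. Loops with and without an LPS loop within 1 bin peak just above 1, and 205 of 6619 reach 1.5.

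The coverage of the bins, in reads not scaled for depth, stood slightly lower after LPS relative to the bins of other loops. Over the 31321 peak bins found in all 4 lists, the log2 ratio of LPS to UT coverage had a median of -0.11 in p30 and -0.60 in p42. These ratios hold differences in depth, as the modelled contacts alone had log2 ratios of -0.31 and -0.26, so coverage fell less than the contacts did in p30 and more in p42. At the 11324 such bins of untreated-only loops the medians were -0.16 and -0.66, at the other 19997 they were -0.09 and -0.57, and at the 2025 of isolated loops -0.18 and -0.70. The share of bins below the median of all 31321 was 57.8% in p30 and 59.3% in p42 for the set, and 61.3% and 64.2% for isolated loops. Coverage enters the expected counts on which the loops were chosen, so these differences are not independent of that choice. The caller corrects for coverage, and the part of coverage in the missing loops was not tested.

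The loops were spread over many genes rather than gathered at a few. Of 21738 protein-coding genes, 10513 had a promoter loop in some list, and 3074 of these (29.2%) had at least 1 untreated-only loop at the bin of their start. For 2237 it was 1 loop, and 22 genes had 5 or more, up to 8. An isolated loop was found at 974 genes (9.26%). Fewer promoter loops after LPS in both isoforms were counted at 2063 genes (19.6%) and more in both at 159, while 4216 (40.1%) had more in p30 and fewer in p42, as the lists themselves did, and the 199 genes with untreated-only loops and 0 promoter loops in both LPS lists belong to the former. The lists behind these gene counts differ in size, with p42 UT the largest, and the part of list size in the counts was not tested.

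Sik1, a salt-inducible kinase of the AMPK family whose transcription responds to cAMP, had the most, with 8. Its start-site bin, chr17:32070001-32075000, went from 19 loops without LPS to 12 with it in p30, and from 21 to 8 in p42. Of its 8 untreated-only loops, 7 ran from the start towards lower coordinates, past the gene's 3′ end, over 30 to 125 kb. The pair 35 kb away had 25 and 20 contacts in p30 UT and p42 UT and at most 12 in each LPS list, and the isolated pair 40 kb away had 16 and 16 against at most 10 and 11. Over expected, the drop in p30 and p42 was at least 1.37-fold and 1.38-fold at 35 kb. At 40 kb it was at least 1.12-fold and 1.26-fold. Coverage of the Sik1 bin went from 3974 to 2984 reads in p30 and from 3529 to 2452 in p42.

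Igsf8, an immunoglobulin-domain partner of tetraspanins at the cell surface, had 7 untreated-only loops, 4 of them isolated. Its bin chr1:172135001-172140000 went from 24 to 17 loops in p30 and from 31 to 13 in p42. An isolated loop joined it over 470 kb to the start of Cd84, a receptor of the SLAM family on blood cells, with 10 contacts in p30 UT, 9 in p42 UT and at most 7 in each LPS list. A pair over 225 kb reached the bin with the starts of Copa, a coat protein of vesicles, and Ncstn, a subunit of gamma-secretase, with 13 and 20 contacts against at most 8 and 8. Over expected, the drop in p30 and p42 was at least 1.40-fold and 1.23-fold for the Cd84 pair. For the Copa pair it was at least 1.51-fold and 2.29-fold. Exact pairs of the Igsf8 promoter that were missing after LPS thus included pairs with other promoters, among them Pea15a and Casq1. The pairs with Copa and Ncstn and with Pea15a had an LPS loop within 1 bin. The Casq1 pair was isolated, with 10 contacts in p42 UT against at most 9. Its smallest drop over expected was 0.97-fold in p42, so no fall is guaranteed.

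Smtn, which encodes the actin-associated smoothelin, had 6 untreated-only loops of which 4 were isolated, and its promoter loops went from 13 to 4 in p30 and from 13 to 5 in p42. All 6 ran upstream of the gene over 25 to 70 kb. The strongest over expected spanned 45 kb with 30 contacts in p30 UT and 18 in p42 UT, ratios of 10.3 and 6.54, and had at most 9 contacts in each LPS list. Its ratio therefore fell at least 2.51-fold in p30 and 1.53-fold in p42.

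Prodh and Cdh5 had 0 promoter loops in both LPS lists, and each had 3 untreated-only loops, all isolated. Prodh, the mitochondrial proline dehydrogenase, had 5 promoter loops in each untreated list, and its untreated-only loops lay 20, 120 and 160 kb away. The nearest, in chr16:17925001-17930000, had 29 contacts in p30 UT and 19 in p42 UT, and the farthest joined the bin with the starts of Ranbp1 and Trmt2a with 9 and 11. Cdh5, VE-cadherin of endothelial and early haematopoietic cells, had 4 and 3 promoter loops in the untreated p30 and p42 lists, of which the loop to the 3′ end of its own gene 45 kb away had 13 contacts in both. No coverage is known for either start-site bin after LPS, since the lists name bins only within loops, so no bound could be set there. Chst15, a sulfotransferase of chondroitin sulfate, had 4 untreated-only loops, 3 of them isolated, and went from 5 to 1 promoter loops in p30 and from 10 to 0 in p42.

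The other genes with the most untreated-only loops fell in loop number in both isoforms with 1 exception. Atp2b4, a plasma membrane calcium pump, had 6 (23 to 17 loops in p30 and 23 to 7 in p42), and Rev1, a polymerase that copies past DNA damage, had 6 (15 to 13 and 25 to 9). Bin2, a membrane-bending protein of leukocytes, also had 6, but its loops went from 14 to 18 in p30 and from 26 to 10 in p42.

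Of the genes with 5 untreated-only loops, S1pr1 encodes the sphingosine-1-phosphate receptor that guides cells out of lymphoid tissue. It went from 10 to 4 loops in p30 and from 19 to 11 in p42. Fut7, a fucosyltransferase that makes selectin ligands on leukocytes, went from 14 to 8 in p30 and from 18 to 5 in p42. Abca2, a lipid transporter whose start-site bin is next to that of Fut7, went from 12 to 5 and from 17 to 7. Fgd3, an exchange factor for the GTPase CDC42, went from 16 to 11 and from 22 to 6, and Slc37a1, of a family of sugar-phosphate transporters, from 10 to 4 and from 16 to 4. Among the 12 genes with the most untreated-only loops, 11 had fewer promoter loops after LPS in both isoforms, as their choice favours.

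**Figure D4:**
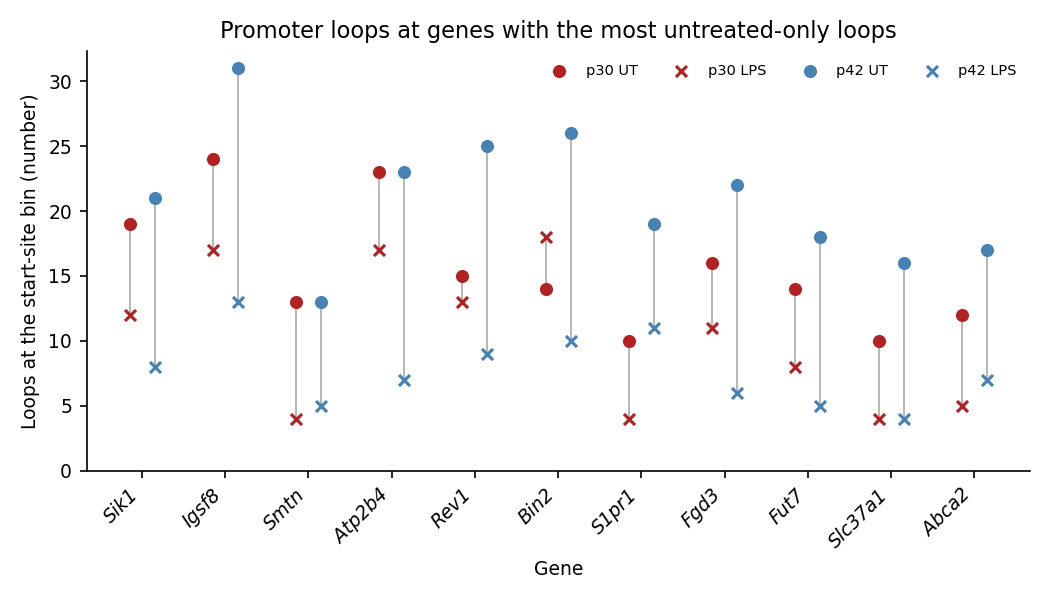
Number of loops at the start-site bin (y axis) in the untreated (circles) and LPS (crosses) lists of p30 and p42 for 11 of the 12 genes with the most untreated-only loops (x axis), 1 list per group and no replicate error. LPS crosses lie below UT circles in both isoforms except at Bin2, where p30 went from 14 to 18.

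Besides Igsf8, Smtn, S1pr1, Chst15, Cdh5 and Prodh, the genes with the most isolated loops were Septin2, Spns1, Lrrc51 and Slc17a4, with 3 each. Septin2, a filament-forming GTPase of the cytoskeleton, went from 13 to 23 promoter loops in p30 and from 36 to 10 in p42, and Lrrc51 stayed at 8 in p30 and went from 17 to 5 in p42. Spns1, a lysosomal lipid transporter, went from 8 to 6 and from 13 to 4, and Slc17a4, a transporter of organic anions, from 7 to 5 and from 8 to 1. Septin2 and Lrrc51 were the 2 of the 10 genes with the most isolated loops where p30 did not have fewer loops after LPS.

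The isolated loop with the eighth-highest ratio to expected joined a pair of promoters 110 kb apart. It ran from chr17:57555001-57560000, with the start of Trip10, a CDC42 effector in membrane trafficking, to chr17:57665001-57670000, with the start of Adgre1, which encodes the macrophage surface marker F4/80. It had 17 contacts in p30 UT and 19 in p42 UT, ratios of 8.92 and 9.06, and at most 8 (p30) and 9 (p42) after LPS, a drop of at least 1.94-fold and 1.87-fold. Coverage of the Adgre1 bin went from 2491 to 2127 reads in p30 and from 4071 to 2449 in p42.

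The other 7 isolated loops with the highest ratios were long, from 190 to 645 kb, and had 11 to 22 contacts. The highest, between chr11:20865001-20870000 and chr11:21125001-21130000 with no start site at either end, had 22 contacts in p30 UT and 14 in p42 UT, ratios of 17.3 and 11.4, and at most 7 in p42 LPS. A loop over 645 kb left the start of Fbxw7, a ubiquitin ligase subunit that limits MYC and cyclin E, with 11 and 12 contacts at ratios of 10.3 and 11.2. Other ends with a start site were Ttf2, a transcription termination factor, and Pde12, a nuclease that trims RNA tails, each 325 kb from its partner, which lay 4.5 kb from Cd2 and 2.3 kb from Hesx1. For the pair near Ms4a6d on chromosome 19, with 12 contacts in both untreated lists, the bound was 7 in both LPS lists. The pair in chr6:51555001-51560000 met an exon of Snx10, a sorting nexin, with 12 contacts in both. The last, between chr12:115565001-115570000 and chr12:115755001-115760000, had 13 and 16 contacts and lay at least 251 kb from any protein-coding start.

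The largest ratios of untreated contacts to the LPS bound were found at pairs that had an LPS loop within 1 bin. The first joined chr11:11510001-11515000 to chr11:11605001-11610000, the latter 25.7 kb from the start of Ikzf1, which encodes the lymphoid and progenitor regulator IKAROS. It had 30 contacts in both untreated lists, at ratios of 12.9 and 12, and at most 8 (p30) and 9 (p42) after LPS, a drop of at least 2.97-fold and 2.53-fold. Coverage was lower after LPS too, from 5040 to 3366 reads in p30 and from 5657 to 2496 in p42 at the bin closer to Ikzf1.

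A pair of 35 kb into an exon of Tnip1, an inhibitor of NF-kB signalling, had 37 and 40 contacts against at most 11 and 12. Expected counts there went from 5.72 to 3.01 in p30 and from 5.92 to 3.25 in p42, so the ratio fell by less, at least 1.77-fold and 1.83-fold. A pair over 45 kb ended 45.7 kb before Fos, the AP-1 subunit, with 28 and 26 contacts against at most 10 and 11. Its ratio fell at least 2.35-fold in p30 and 1.71-fold in p42. The start of Rps6ka5, the stress-activated kinase MSK1, was an end of a 50-kb pair with 33 and 26 contacts against at most 11 in each LPS list. Of the remaining 4, a pair had 1 end at an exon of Gsn (gelsolin), a pair joined an exon of Tle5 to the start of BC025920, a pair had both ends in introns of Nfatc1 and a pair had 1 end at chr1:88490001-88495000. They had 20 to 28 contacts in the untreated lists and at most 8 to 11 after LPS.

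Neighbouring untreated-only loops rarely formed blocks. Merging adjacent bin pairs gave 9237 clusters, of which 8127 (88.0%) held 1 loop and 22 held 5 or more, with 132 loops in all. The largest spanned chr13:56290001-56340000 with 10 loops, 9 of them isolated, at median contacts of 20.5 in p30 UT and 24.5 in p42 UT. It covers the start of Tifab, an adaptor that restrains TRAF6 signalling downstream of Toll-like receptors. Coverage of its bin at 56295001 went from 5523 to 3872 reads in p30 and from 6915 to 2217 in p42. A cluster of 7 spanned chr2:25310001-25385000 with the starts of Fut7, Abca2, Clic3, Paxx, Ptgds and Lcn12, and none of its loops was isolated. The pair between the starts of Fut7 and Ptgds, a prostaglandin synthase, had 20 contacts in p30 UT and 26 in p42 UT and at most 11 in p30 LPS. Over expected, its drop in p30 was at least 1.18-fold. A bin without a start, chr1:88490001-88495000, took part in 9 untreated-only loops and went from 19 to 7 loops in p30 and from 21 to 10 in p42.

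Inflammatory response genes had few untreated-only loops for the number of loops at their promoters. Of 54 with a promoter loop, 10 (18.5%) had an untreated-only loop, against 29.2% of all genes, and 0 had an isolated one, against 9.26%. Counted by loops, each taken once, 15 of 189 untreated-shared loops at these promoters (7.94%, 4.87 to 12.7) were untreated-only, below the 15.6% (15.1 to 16.1) of the 21117 at any promoter. The interval of these genes overlapped those of all other gene lists except the lymphoid one, which had 4 untreated-shared loops. Fewer promoter loops in both isoforms were counted at 4 of the 54 and more in both at 3, beside 2063 and 159 of 10513. No untreated-only loop was found at Nfkbia, the NF-kB inhibitor, whose promoter loops went from 9 to 23 in p30 and from 26 to 20 in p42. Nor was one found at Tnfaip3, a brake on NF-kB (from 7 to 24 and from 20 to 18), or at the cytokine gene Il6 (from 2 to 9 and from 6 to 12). Tnip1 had 3 untreated-only loops and Nfkbie and Ier3 had 2 each.

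Stem and progenitor regulators stood at 14 of 32 genes (43.8%), granulocyte and monocyte genes at 12 of 27 (44.4%), immediate early genes at 9 of 21 (42.9%) and cell cycle and growth genes at 12 of 30 (40%). These genes also have many loops, and by loops the shares were 15.2% (10.4 to 21.6), 12.7% (8.40 to 18.9), 9.52% (5.76 to 15.4) and 15.9% (10.8 to 22.7), with intervals that hold the 15.6% of all promoters except that of immediate early genes, whose upper end lies at 15.4%. Among the progenitor regulators, Tcf3, an E-protein, had 4 and went from 14 to 12 loops in p30 and from 16 to 7 in p42. Hhex, a homeobox gene of early progenitors, had 2, both isolated, and Cbfa2t3, a corepressor, had 2 and went from 9 to 6 and from 10 to 2. Fewer loops in both isoforms were seen at 13 of the 32 progenitor regulators (19.6% over all genes), at 3 of the 27 granulocyte and monocyte genes, at 4 of the 21 immediate early genes and at 5 of the 30 cell cycle and growth genes.

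AP-1 and ATF factors had an untreated-only loop at 5 of 17 genes (29.4%), 2 of them with an isolated one, and by loops at 10.3% (5.29 to 19.0). Ddit3, which encodes the stress factor CHOP, had 3 and Jund had 2, while Fos had 0 and went from 13 to 12 promoter loops in p30 and from 19 to 14 in p42. Ribosomal protein genes stood at 25 of 69 (36.2%) and by loops at 15.1% (11 to 20.5). Erythroid and megakaryocyte genes stood at 4 of 15, mast cell and basophil genes at 1 of 10 and lymphoid genes at 2 of 6, too few for their shares to be compared. Among granulocyte and monocyte genes, Fcer1g, the signalling chain of Fc receptors, had 5, and Csf3r, the G-CSF receptor, and Itgam, which encodes CD11b, had 2 each. Spred2, a brake on RAS signalling, had 3, and Ccnd2, which encodes cyclin D2, and Ncl, which encodes nucleolin, had 4 each. Cebpa itself, whose product is the factor under study, had 2 and went from 10 to 5 loops in p30 and from 11 to 5 in p42.

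**Figure D5:**
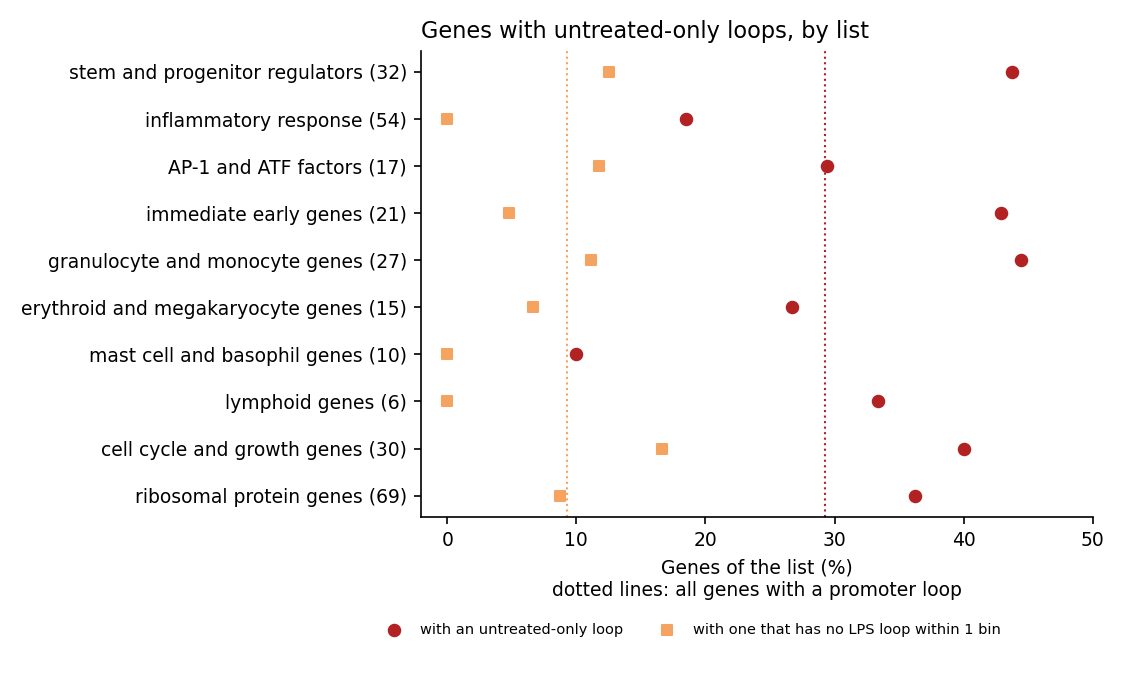
Share of the genes of each list (y axis, genes with a promoter loop in brackets) that have an untreated-only loop at the start-site bin (circles) or an isolated one (squares), in % (x axis), with dotted lines at the shares of all 10513 genes with a promoter loop, 29.2% and 9.26%. Inflammatory response genes lie at 18.5% and 0.

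The sequence of the peak bins differed from that of all peak bins of either untreated list in some motifs and not in others. Bins of untreated-only loops are in both untreated lists, so these gaps mix being shared by both lists with being absent after LPS. A comparison with bins shared by both untreated lists was not made. The AP-1 letters were found in 76.8% (76.1 to 77.4) of the 15011 peak bins of untreated-only loops and in 77.3% (77.0 to 77.6) of all 61131 peak bins of the untreated lists. The NF-kB letters were in 15.4% and 15.2%, the C/EBP letters in 0.673% and 0.615%, and the RUNX letters in 75.2% of both. The CTCF core was found in 3.48% (3.20 to 3.79) of the bins of untreated-only loops against 2.44% (2.32 to 2.57) of all, and in 3.87% (3.28 to 4.56) of the 3464 bins of isolated loops. The widest gap was in the SP/KLF letters, found in 60.8% (60 to 61.6) of the bins of untreated-only loops against 54.7% (54.3 to 55.1) of all. The ETS letters were in 7.02% (6.62 to 7.44) against 6.03% (5.85 to 6.23), while the GATA letters, at 90.1% (89.6 to 90.5) against 91.8% (91.6 to 92.0), and the C/EBP-ATF letters, at 10.6% (10.1 to 11.1) against 11.5% (11.2 to 11.7), were rarer. Among bins with a start site the SP/KLF intervals overlapped, at 91.9% (90.8 to 92.9) and 90.4% (89.8 to 91.1). The CTCF shares there were 8.91% (7.88 to 10.1) and 7.17% (6.64 to 7.74). Among bins without a start site the CTCF shares were 2.32% (2.07 to 2.60) and 1.67% (1.56 to 1.78), and those of SP/KLF 54.2% (53.3 to 55.0) and 48.8% (48.4 to 49.3). Their median GC content was 46.4% and 45%, and the part of base composition in these differences was not tested.

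By chromosome, the untreated-only share of untreated-shared loops on the autosomes ranged from 15.3% on chromosome 17 (1001 of 6546) to 25.1% on chromosome 13 (285 of 1135). The X chromosome held 50 of the loops and the Y chromosome 0 of 3.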

How the data were processed

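H3K27ac HiChIP libraries of 4 groups with 2 replicates each (8 libraries) were mapped by the authors to mm39 with BWA-MEM 0.7.17, as the submitters' processing notes give it. pairtools then collected ligation products and dropped PCR duplicates, and loops were called with FitHiChIP in 5 kb bins at a q-value under 0.01. The authors deposited 1 list a group with 26 columns and no header, and how the replicates were pooled is not given in the sources used here. The deposited contact count is an unnormalized tally of ligation products joining a pair of bins, and the deposited coverage counts reads per bin. The deposited expected count is the caller's estimate from distance and coverage bias. The coverage bias deposited by the authors is a ratio to the mean of its bin class, and their contact probability, the expected count over all modelled contacts, is a fraction. The p-value and q-value in the deposited lists come from the caller's binomial model with Benjamini-Hochberg adjustment. Because the caller corrects for coverage and lists significant pairs alone, true changes in contacts at bins with changed H3K27ac can be reduced, and unlisted pairs have no known contacts.

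A loop was an identical pair of bins. The loops and the gene lists were chosen with earlier results of these data known. Promoter loops have a bin with the canonical start of 1 of 21738 protein-coding genes of GENCODE M39 on GRCm39, the assembly behind mm39. The bound on LPS contacts was the largest count whose binomial p-value exceeded the largest one listed (0.000145 in p30 LPS and 0.000105 in p42 LPS), at an expected count from a log-linear formula in coverage bias per distance, fitted where at least 6 loops were listed. The formula was available at 110 distances in p30 LPS and 101 in p42 LPS. The calculation was tested on simulated data first.

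Named were the 12 genes with the most untreated-only loops at the start-site bin (1 of them is not reported here), the 10 with the most isolated ones (ties by isolated loops, then the alphabet), the 8 isolated loops with the highest smaller ratio of contacts to expected at 10 or more contacts, the 8 loops with the highest ratio of untreated contacts to the bound, and up to 3 genes with most loops from each list. The gene lists were written for this work. Other genes, Cebpa, Nfkbia, Tnfaip3, Il6, Fos, Tifab and genes at the other end of a named loop, were chosen after their values were seen. With 1 list a group no test was run, and intervals are 95% Wilson intervals for counting error. Alternatives were lists of equal size, a q-value under 0.001 in the untreated or in all lists, at least 10 contacts, distances of 20 kb or more, autosomes, each isoform alone, merged pairs, other promoter definitions and 2 bins of slack. Python 3.11.15 with pandas 2.3.3, numpy 2.4.6, scipy 1.17.1, statsmodels 0.14.6 and matplotlib 3.10.9 was used.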

Additional observations from a re-analysis of the deposited data

Results flagged for a closer look

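At 12 of 46 named genes, the number of promoter loops was higher in p30 LPS than in p30 UT but lower in p42 LPS than in p42 UT, although each gene had at least 1 loop that both isoforms showed only without LPS. The share with this pattern was larger over all genes with a promoter loop, at 4216 of 10513 (40.1%). Over the 3074 genes with an untreated-only loop it was 1115 (36.3%). The lists moved the same way, from 80489 to 94609 loops in p30 and from 158233 to 78591 in p42. With 1 list per group the difference between isoforms was not tested. Rap1b, a small GTPase of integrin activation, had 14 more loops after LPS in p30 (6 to 20) and went from 23 to 11 in p42. Septin2 had 10 more in p30 (13 to 23) and went from 36 to 10 in p42, and Spred1, a brake on RAS signalling, had 9 more (12 to 21) and went from 25 to 16. Jund had 5 more in p30 (13 to 18, and 14 to 8 in p42) and Bin2 had 4 more (14 to 18, and 26 to 10 in p42). Hdc, which makes histamine, had 3 more (2 to 5, and 8 to 3 in p42), as had Rpl10a (9 to 12, and 13 to 9 in p42). Fcer1g (19 to 21, and 36 to 14 in p42), Ncl (12 to 14, and 20 to 5 in p42) and Rpl27a (3 to 5, and 6 to 2 in p42) had 2 more. Ier3 (26 to 27, and 33 to 24 in p42) and the integrin gene Itgb3 (4 to 5, and 13 to 5 in p42) had 1 more.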

How the results depend on the processing

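No paired analysis was possible because each deposited list pools both replicates of a group, and for the same reason no replicate could be left out. The 10690 untreated-only loops became 5503 in lists of equal size and 3869 at a q-value under 0.001 in the untreated lists, and for 1 isoform alone they were 33485 in p30 and 98386 in p42. Their promoter share of 30.7% was 33.4% in lists of equal size, 32.3% with the stricter q-value in the untreated lists, 33.2% with it in all lists, 33.0% at 20 kb or more and 28.3% for p30 alone. With the start of any transcript it was 50.5%, against 58.3% for loops in all 4 lists and 48.8% for LPS-only loops, and with 1 bin on each side 55.7%, against 65.1% and 51.7%, so the order of these sets did not change. The median distance of 50 kb was 40 kb at 10 or more contacts, 60 kb at 20 kb or more and 55 kb for p30 alone. The isolated share of 19.0% was 15.6% in lists of equal size, 14.5% and 21.7% with the stricter q-value in the untreated or in all lists, 17.7% at 10 or more contacts and likewise at 20 kb or more, 36.4% for p30 alone, 42.8% for p42 alone and 10.5% with 2 bins of slack. The median of the smaller ratio of contacts to expected, 4.02, was 4.16 in lists of equal size, 4.62 and 4.45 with the stricter q-value in the untreated or in all lists, 3.81 at 10 or more contacts, 4.46 at 20 kb or more, 4.51 for p30 alone and 4.11 for p42 alone. The other 15 values stayed within counting error or, for counts of loops, within 1.5 times. The causes were not tested, apart from the filters on distance and contacts, which act on those values by construction. Of the 5503 loops in lists of equal size, 4685 were also absent from the full LPS lists. Depth limits the bound, since the median pair, expected at about 3 contacts after LPS, is listed only above 11.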
